A study of Mus musculus with 8 samples.

Results

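The genes described here sense DNA damage, halt the cell cycle in answer to it, or repair the damage. A list of 34 such genes was matched by symbol, through the RefSeq transcript of each probe set, and all 34 were found among the 15653 genes that could be named. They comprise 5 repair genes known as p53-induced, 16 that are known to be transcribed mainly from late G1 to G2 and are called cell-cycle-linked here, and 13 others. The members have 41 probe sets, of which 35 have distinct values. Where a gene had several, the brightest was used. Only Ercc1 had probe sets that differed from each other.

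Damage is signalled by kinases, with Atm answering double-strand breaks and Atr stalled forks, and these act through Chek2 and Chek1 to stop the cycle. Breaks are joined directly by end joining or copied from the sister chromatid by homologous recombination, crosslinks need the Fanconi anaemia proteins, and bulky lesions and altered bases are cut out by the excision pathways. p53 is known to raise the transcription of several repair genes, whereas many genes of recombination are transcribed when cells replicate their DNA.

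Expression was measured on 8 Affymetrix mouse arrays of 3 cultured fibroblast lines. Ind-8 cells (3 arrays), which divide asymmetrically, are p53-null cells carrying a mouse p53 cDNA behind a metallothionein promoter that zinc switches on. Con-3 cells (3 arrays), which divide symmetrically, lack that cDNA. They are a vector control by the study's methods, whereas the labels make them the parent line. tI-3 cells (2 arrays) descend from Ind-8, express p53 in zinc and in addition a constitutive IMPDH II, and divide symmetrically. All cultures spent 48 h in 65 µM ZnCl2 with puromycin at 5 µg/ml, and the tI-3 medium also held G418. Each state is 1 cloned line, so state and line cannot be told apart, nor can the tI-3 state and G418. Values are RMA log2 intensities, and the number of arrays limits their precision.

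The labels were checked first. Cdkn1a, a cell cycle inhibitor that p53 induces, read 9.70, 9.70 and 9.59 on the Ind-8 arrays, 5.73, 5.81 and 6.03 on the Con-3 arrays and 7.55 and 7.33 on the tI-3 arrays. The lines did not overlap, and tI-3 lay between the others. Mdm2, the p53 ligase, was higher than in Con-3 by 2.00 in Ind-8 and by 0.72 in tI-3 cells on the log2 scale. Trp53 itself was higher by 0.53 (adjusted p = 0.00192, limma) in Ind-8 and by 0.39 (adjusted p = 0.0144) in tI-3 cells. The latter call was lost without tI-3 replicate 2 (adjusted p = 0.109) and with the hybridization-control level as a covariate (adjusted p = 0.0616). Whether its probes lie in the part of the gene that the null cells lack was not tested. Impdh2 was lower in Ind-8 than in Con-3 cells, with a log2 difference of −0.34 (adjusted p = 0.0108). It was not called between tI-3 and Con-3 cells, with −0.17 (adjusted p = 0.182), and its probes need not read the introduced cDNA.

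Among 8 fibroblast markers, Vim, Fn1, Col1a1 and Col1a2 were bright, between 10.64 and 14.08 on every array, while Thy1 lay between 3.81 and 4.63, at the dim end, where the lowest 25% of probe sets average under 4.30. Between tI-3 and Con-3 cells 3 of the 8 were lower and 3 higher. Lower were Col3a1, with a log2 difference of −2.68 (adjusted p = 0.000621), Col1a1, with −1.06 (adjusted p = 0.00474), and Pdgfra, with −1.04 (adjusted p = 0.00301). Higher were Thy1, with 0.37 (adjusted p = 0.0275), Pdgfrb, with 0.33 (adjusted p = 0.03), and Fn1, with 0.28 (adjusted p = 0.0482). Between Ind-8 and Con-3 cells Fn1 (0.70) and Pdgfrb (0.38) were higher and Thy1 (−0.30) lower. Against tI-3, Ind-8 cells had 5 of the 8 higher and 1 lower: Col3a1 (2.42), Pdgfra (1.51), Col1a1 (1.49), Fn1 (0.42) and Vim (0.39) were higher, and Thy1 (−0.67) was lower. The mean over the fibroblast list was 9.97, 10.28 and 10.28 in Ind-8, 9.79, 10.01 and 10.05 in Con-3 and 9.45 and 9.43 in tI-3 cells. The 4 epithelial markers averaged between 3.85 and 4.27 on every array, and the 2 blood markers that could be matched between 3.43 and 3.79. Of these Aif1 was lower in Ind-8 than in tI-3 cells, by −0.36 (adjusted p = 0.0217). The 3 endothelial markers averaged 4.98 and 5.03 on the tI-3 arrays and between 4.501 and 4.89 on the others. Among them Kdr was higher in tI-3 than in Con-3 cells by 0.44 (adjusted p = 0.0133). In Ind-8 cells it was lower than in Con-3, by −0.32 (adjusted p = 0.0377), and than in tI-3, by −0.76 (adjusted p = 0.000877).

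Some arrays stood apart in their control probe sets. The 3 probe sets of 18S ribosomal RNA averaged 10.63 on Con-3 replicate 3 and between 5.58 and 6.46 on the other arrays. The 14 hybridization controls, which are spiked in before hybridization, averaged 9.62 on that array, 9.43 and 9.71 on the tI-3 arrays and between 8.98 and 9.16 on the rest. The difference between the 3′ and 5′ actin controls, a sign of RNA quality, was 0.192, 0.141 and 0.156 in Ind-8, 0.117, 0.135 and 0.110 in Con-3 and 0.0578 and 0.0695 in tI-3 cells. The lines did not overlap in it. For the Gapdh controls the difference was −0.109, −0.198 and −0.215 in Ind-8 and −0.213, −0.195 and −0.184 in Con-3. In tI-3 cells it was −0.205 and −0.206, and here the lines overlapped. No fit took either difference into account. Counts of members are therefore given also without Con-3 replicate 3 and with the hybridization-control level as a covariate. That level separates Ind-8 from both other lines without overlap. The Ind-8 arrays lay between 8.98 and 9.04, below the tI-3 arrays and below the Con-3 arrays at 9.05, 9.16 and 9.62. The covariate therefore takes precision from the comparisons of Ind-8 with tI-3 and with Con-3. A call lost with it does not show that the control signal accounts for the difference.

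In Ind-8 against Con-3 cells, 7 of the 34 members were higher and 15 lower at an adjusted p under 0.05 (limma, p adjusted by Benjamini-Hochberg across the array). Among the 22523 probe sets tested, 10.9% were called higher and 11% lower. The median log2 difference was −0.29 over the members and −0.06 over all probe sets. Without Con-3 replicate 3, 7 were higher and 13 lower, and with the hybridization-control covariate 5 and 14. Calls lost with it were those of Ddb2 (0.65, adjusted p = 0.0768), Xrcc5 (0.48, adjusted p = 0.0604), Xrcc2 (−0.31, adjusted p = 0.0867) and Nbn (−0.28, adjusted p = 0.099), and Brip1 was added (−0.51, adjusted p = 0.038). The rank product test, the test of the study's methods, called 3 higher and 4 lower, beside 484 and 322 of all 22523 probe sets.

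In tI-3 against Con-3 cells, 3 members were higher, beside 10.2% of all probe sets, and 13 lower, beside 15.1%. The median was −0.20 over the members and 0.04 over all probe sets. Without Con-3 replicate 3 these counts were 3 and 13. The lower count was 6 without tI-3 replicate 2, and the rank product test called 2 lower, beside 366 of all probe sets, and none higher, beside 142. With the hybridization-control covariate 2 were higher and 7 lower. Calls lost with it were those of Chek1 (−0.34, adjusted p = 0.122), Brca1 (−0.55, adjusted p = 0.0515), Brca2 (0.47, adjusted p = 0.0573), Brip1 (−0.46, adjusted p = 0.0725), Palb2 (−0.34, adjusted p = 0.118), Msh6 (−0.42, adjusted p = 0.0526) and Exo1 (−0.35, adjusted p = 0.111).

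In Ind-8 against tI-3 cells, 8 members were higher, beside 15.6% of all probe sets, and 6 lower, beside 15.5%. The median was 0.02 over the members and −0.06 over all probe sets. Without Con-3 replicate 3 the counts were 8 and 6. With the hybridization-control covariate 2 were called, Ercc1 and Ercc5, both higher. The other 12 were not called under it, with adjusted p from 0.0686 (Polk) to 0.803 (Rrm2b). Some of their differences stayed near their size, such as those of Xrcc5 (0.69), Polk (0.76) and Prkdc (0.39), and that of Atm was larger (−0.55). Those of Rrm2b (0.15), Brca2 (−0.59), Polh (0.37) and Blm (−0.29) shrank by over 1.5 times. The rank product test called none in either direction, beside 361 higher and 86 lower of all probe sets. The higher count was 3 without tI-3 replicate 2. The lower count was 3 without Ind-8 replicate 2 and 1 without either tI-3 replicate. All 3 comparisons share arrays, so their values are set side by side below without being compared as independent results.

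**Figure D1:**
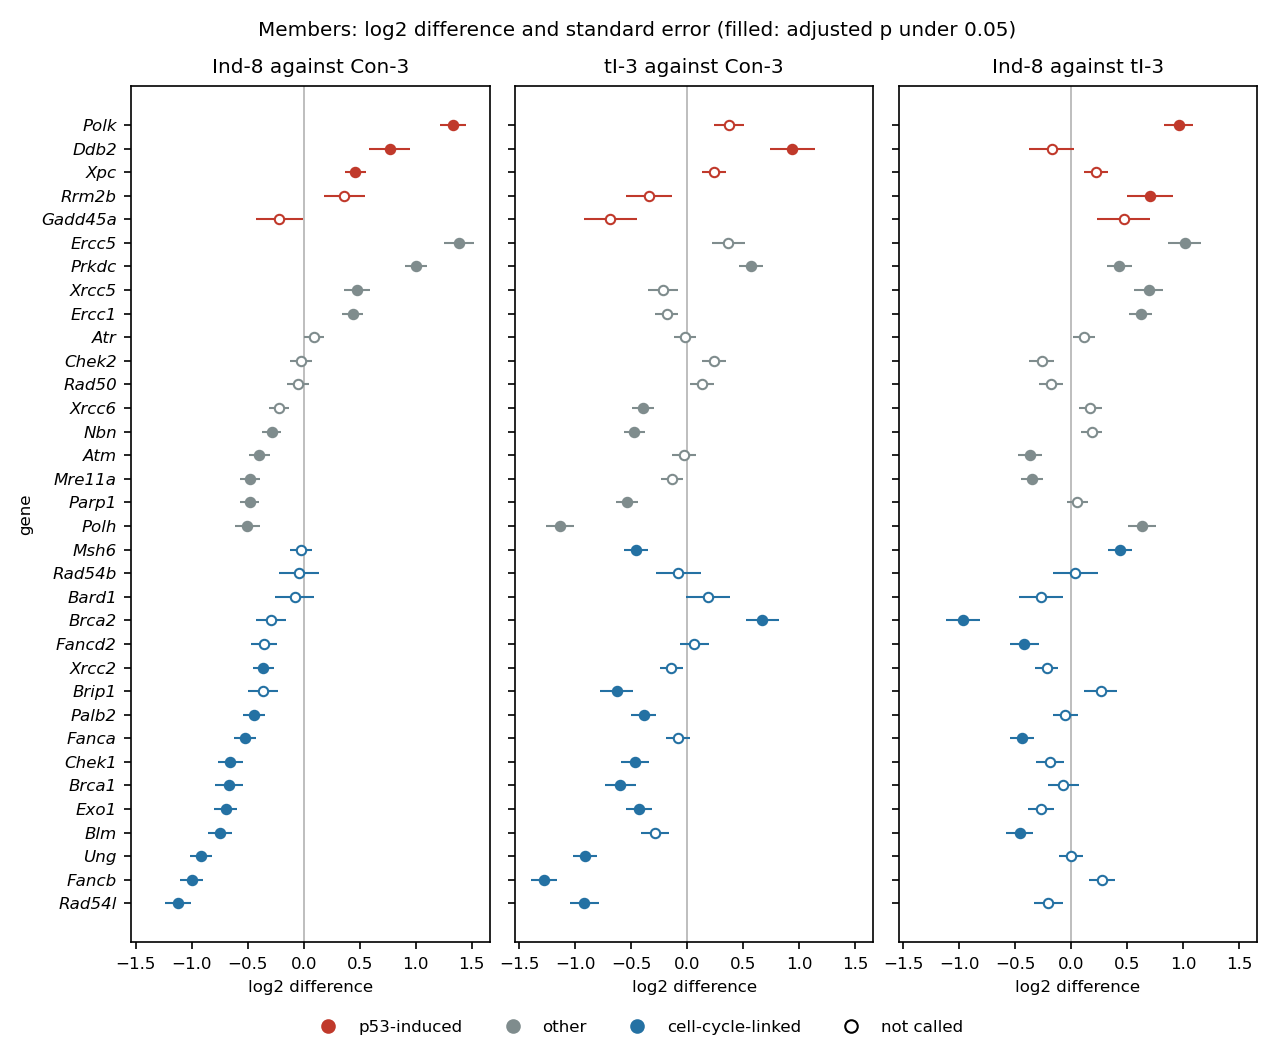
Log2 difference (x axis, with standard error) of each of the 34 members (y axis) in the 3 comparisons, filled where the limma adjusted p was under 0.05. Against Con-3, Ind-8 differences ran from −1.12 (Rad54l) to 1.38 (Ercc5) and tI-3 differences from −1.28 (Fancb) to 0.94 (Ddb2).

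Promoters are shown for 5 members that differed between the lines. The windows are 300 bases long and come from RefSeq (build GRCm38.p6), by a start that need not be the first of the gene, and 24 of the 34 members had a window in the table used. Each window was searched on both strands for E2F letters (TTTCCCGC, TTTGGCGC, TTTCGCGC or TTTGCCGC), for the CHR letters TTTGAA of cell cycle genes, and for the p53 response element. E2F letters were in the windows of 5 of the 24 genes (Bard1, Brca2, Msh6, Chek2 and Xrcc6). These were 19.2% of the members' 26 windows, beside 2.26% of all 32817 windows. The share was 23.1% for the cell-cycle-linked genes and 20% for the others. Bard1, Brca2 and Msh6, the cell-cycle-linked genes with E2F letters, were not called between Ind-8 and Con-3 cells. Between tI-3 and Con-3 cells Brca2 was called higher and Msh6 lower, and Bard1 was not called. Only 12 cell-cycle-linked genes had a window, and whether the letters bear on any difference was not tested. CHR letters were in the windows of 2 genes (Bard1 and Ercc5), 7.69% of the members' windows, beside 17.9% of all windows. A p53 element, counted only where both half-sites matched the consensus exactly, was in none of the members' windows and in 0.0731% of all. A match this rare is hardly to be found in 26 windows, so its absence tells nothing of p53 binding. The windows also reach only this far. Of the 5 p53-induced genes only Gadd45a and Polk had a window, so Xpc, Ddb2 and Rrm2b were not searched. Capitals mark E2F letters in Brca2 at chr5:150522371-150522670 (+ strand) and Msh6 at chr17:87974800-87975099 (+ strand), and CHR letters in Ercc5 at chr1:44147494-44147793 (+ strand). Ung at chr5:114130185-114130484 (+ strand) and Fancb at chrX:164980342-164980641 (+ strand), among the members that fell most, held none of these letters.
Brca2: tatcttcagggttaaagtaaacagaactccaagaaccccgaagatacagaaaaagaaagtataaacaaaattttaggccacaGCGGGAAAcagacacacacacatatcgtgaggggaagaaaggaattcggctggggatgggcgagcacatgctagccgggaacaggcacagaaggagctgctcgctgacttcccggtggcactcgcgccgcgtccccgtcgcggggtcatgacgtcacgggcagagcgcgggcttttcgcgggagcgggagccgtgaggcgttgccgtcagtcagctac
Msh6: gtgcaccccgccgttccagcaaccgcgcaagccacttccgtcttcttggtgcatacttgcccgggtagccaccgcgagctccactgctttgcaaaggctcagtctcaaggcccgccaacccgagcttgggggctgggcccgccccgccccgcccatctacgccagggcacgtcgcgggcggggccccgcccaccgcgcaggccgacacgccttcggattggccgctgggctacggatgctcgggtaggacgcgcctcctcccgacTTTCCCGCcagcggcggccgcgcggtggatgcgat
Ercc5: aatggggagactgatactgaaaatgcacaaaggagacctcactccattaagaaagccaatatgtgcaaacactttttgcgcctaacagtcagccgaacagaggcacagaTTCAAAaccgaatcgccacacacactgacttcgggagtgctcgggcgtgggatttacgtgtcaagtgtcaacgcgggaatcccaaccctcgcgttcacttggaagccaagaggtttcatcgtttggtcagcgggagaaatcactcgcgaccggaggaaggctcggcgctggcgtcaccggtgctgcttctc
Ung: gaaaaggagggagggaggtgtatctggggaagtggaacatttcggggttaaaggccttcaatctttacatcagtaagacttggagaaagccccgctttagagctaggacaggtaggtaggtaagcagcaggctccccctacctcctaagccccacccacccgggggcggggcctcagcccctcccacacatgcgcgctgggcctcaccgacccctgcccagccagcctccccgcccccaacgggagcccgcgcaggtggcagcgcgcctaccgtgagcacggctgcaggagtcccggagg
Fancb: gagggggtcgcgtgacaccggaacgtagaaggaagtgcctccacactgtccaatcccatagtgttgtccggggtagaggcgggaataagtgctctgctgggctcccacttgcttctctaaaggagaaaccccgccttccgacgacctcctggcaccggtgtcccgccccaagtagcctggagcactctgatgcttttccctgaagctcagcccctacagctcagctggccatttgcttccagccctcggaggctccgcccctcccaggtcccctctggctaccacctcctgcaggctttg

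Of the 5 genes known as p53-induced, 3 were higher in Ind-8 than in Con-3 cells (Polk, Ddb2 and Xpc), beside 10.9% of all probe sets, and 2 were not called (Rrm2b and Gadd45a). The median log2 difference was 0.46, and 1 was called by the rank product test and 2 with the covariate. In tI-3 against Con-3 cells Ddb2 alone was higher by limma, beside 10.2% (median 0.23). That count was 2 without Ind-8 replicate 1 or Con-3 replicate 1 and with arrays quantile-normalized again, and Ddb2 was lost without tI-3 replicate 1 (adjusted p = 0.0697). In Ind-8 against tI-3 cells Polk and Rrm2b were higher, beside 15.6%, with a median of 0.47 (0.15 with the covariate), and without Ind-8 replicate 2 or tI-3 replicate 2 the count was 1.

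Polk, a polymerase that copies past bulky lesions, read 7.82, 8.20 and 8.02 in Ind-8, 6.84, 6.58 and 6.62 in Con-3 and 7.14 and 6.96 in tI-3 cells. Every Ind-8 array lay above every other array. Polk was 2.52-fold higher in Ind-8 than in Con-3 cells (log2 difference 1.33, SE 0.118, adjusted p = 6.98e-05), a call that the rank product test also made. Against tI-3 the difference was 0.96 (SE 0.132, adjusted p = 0.000737), and it was not called with the hybridization-control covariate (adjusted p = 0.0686). Between tI-3 and Con-3 it was 0.37 and not called (adjusted p = 0.0636), but was without Ind-8 replicate 1 (adjusted p = 0.0481) or Con-3 replicate 1 (adjusted p = 0.0431) and with arrays quantile-normalized again (adjusted p = 0.0275).

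Ddb2, which binds ultraviolet lesions, read 7.47, 7.78 and 7.16 in Ind-8, 6.53, 6.98 and 6.60 in Con-3 and 7.86 and 7.43 in tI-3 cells. Both p53-expressing lines lay above Con-3 and overlapped each other. The log2 difference from Con-3 was 0.77 (SE 0.179, adjusted p = 0.0119) in Ind-8 and 0.94 (SE 0.201, adjusted p = 0.00678) in tI-3 cells. The former was not called with the hybridization-control covariate (adjusted p = 0.0768), nor the latter without tI-3 replicate 1 (adjusted p = 0.0697). Xpc, which finds distorted helices, read 6.71, 6.72 and 6.55 in Ind-8, 6.32, 6.19 and 6.08 in Con-3 and 6.39 and 6.47 in tI-3 cells. Here the lines did not overlap, with tI-3 in the middle. Only the difference of 0.46 between Ind-8 and Con-3 was called (SE 0.0953, adjusted p = 0.0068).

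Rrm2b, the ribonucleotide reductase subunit that supplies precursors for repair, read 5.90, 6.29 and 5.74 in Ind-8, 5.98, 5.52 and 5.35 in Con-3 and 5.44 and 5.10 in tI-3 cells. Ind-8 overlapped Con-3 but not tI-3. It was higher in Ind-8 than in tI-3 cells by 0.70 (SE 0.205, adjusted p = 0.0264), which was lost without Ind-8 replicate 2 (adjusted p = 0.0788), without tI-3 replicate 2 (adjusted p = 0.2) and with the covariate (adjusted p = 0.803). Against Con-3 the difference of 0.36 was called only without Con-3 replicate 1 (adjusted p = 0.0487). Gadd45a, which binds cell cycle kinases after damage, read 7.38, 7.86 and 7.37 in Ind-8, 7.23, 8.06 and 7.96 in Con-3 and 7.21 and 6.92 in tI-3 cells. Con-3 was the most scattered line and spanned the Ind-8 values, so this gene did not behave as its group's name says. Its difference between Ind-8 and Con-3 was −0.22, with a 95% interval from −0.69 to 0.25. The tI-3 difference of −0.69 (adjusted p = 0.0569) was called without Con-3 replicate 1 (adjusted p = 0.00489) and among probe sets above the 25th percentile (adjusted p = 0.0484). The Gadd45a difference of 0.47 between Ind-8 and tI-3 (adjusted p = 0.153) was also called without Con-3 replicate 1 (adjusted p = 0.0495).

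**Figure D2:**
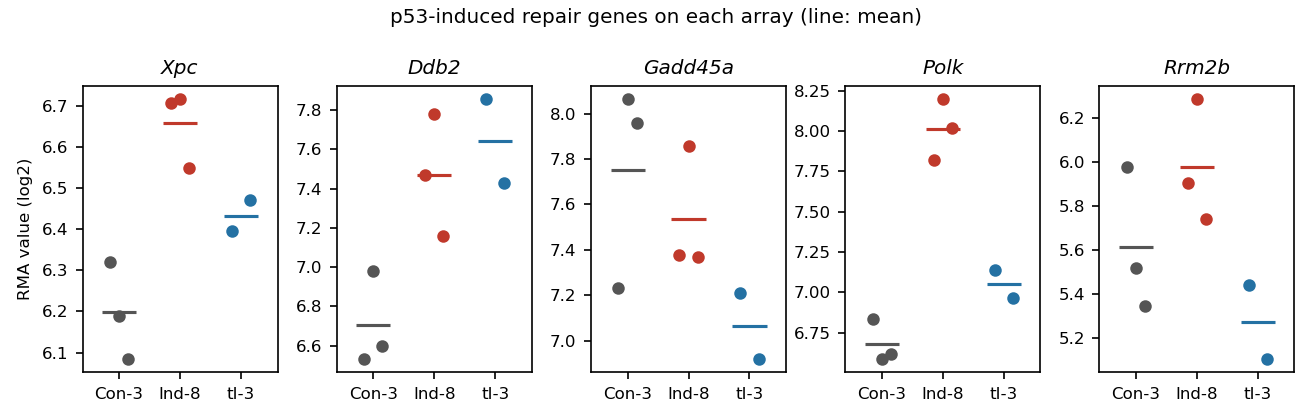
RMA log2 value (y axis, scaled to each gene) of the 5 p53-induced genes on each array (points; line, mean) of Con-3, Ind-8 and tI-3 cells. Polk lay between 7.82 and 8.20 in Ind-8 and below 7.15 elsewhere, while Gadd45a in Con-3 spread from 7.23 to 8.06.

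Nucleotide excision repair also includes Ercc5 and Ercc1, which take part in cutting the damaged strand on either side of the lesion. Ercc5 read 8.002, 8.26 and 7.99 in Ind-8, 6.52, 6.73 and 6.86 in Con-3 and 7.26 and 6.88 in tI-3 cells. Ind-8 stood above both other lines. Its difference from Con-3, 1.38 (SE 0.132, 2.61-fold, adjusted p = 0.000104), was the largest of the 34 members, and the rank product test called it too. Against tI-3 it was 1.02 (SE 0.148, adjusted p = 0.00102). Ercc1 read 11.26, 11.15 and 11.01 in Ind-8, 10.65, 10.71 and 10.75 in Con-3 and 10.50 and 10.54 in tI-3 cells, with Ind-8 again highest. It was higher than in Con-3 by 0.44 (SE 0.0918, adjusted p = 0.0074) and than in tI-3 by 0.62 (SE 0.103, adjusted p = 0.00203). The dimmer Ercc1 probe set differed from Con-3 by 0.05 only (adjusted p = 0.717), and from tI-3 by 0.05 (adjusted p = 0.699). With the median of both, the call against Con-3 was lost (adjusted p = 0.0685) and the difference from tI-3, still called, was 0.34.

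End joining rests on Prkdc, the DNA-dependent kinase, and on Xrcc5 and Xrcc6, the Ku proteins that bind broken ends. They did not move alike. Prkdc and Xrcc5 were higher in Ind-8 than in Con-3 cells. Xrcc6 differed by −0.22 there and was not called (limma adjusted p = 0.111), though its arrays did not overlap. Prkdc read 7.53, 7.26 and 7.22 in Ind-8, 6.32, 6.40 and 6.28 in Con-3 and 6.91 and 6.90 in tI-3 cells. No lines overlapped, and tI-3 lay between. It was higher than in Con-3 by 1.00 (SE 0.0996, adjusted p = 0.000126) in Ind-8 and by 0.57 (SE 0.111, adjusted p = 0.00426) in tI-3 cells. The call of the 0.43 between Ind-8 and tI-3 was lost without tI-3 replicate 1 (adjusted p = 0.0631) or 2 (adjusted p = 0.087) and with arrays quantile-normalized again (adjusted p = 0.0774). Xrcc5 read 7.76, 7.85 and 7.75 in Ind-8, 7.12, 7.44 and 7.37 in Con-3 and 7.26 and 6.92 in tI-3 cells. Ind-8 lay above the other lines, which overlapped. It exceeded Con-3 by 0.48 (adjusted p = 0.0152; 0.0593 without Ind-8 replicate 2) and tI-3 by 0.69 (adjusted p = 0.00403; 0.051 without tI-3 replicate 2). Xrcc6 was lower in tI-3 than in Con-3 cells, with a difference of −0.40 (adjusted p = 0.0162), a call lost without either tI-3 array (adjusted p = 0.0511 and 0.108) or Con-3 replicate 2 (adjusted p = 0.0582) and with arrays quantile-normalized again (adjusted p = 0.0616).

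**Figure D3:**
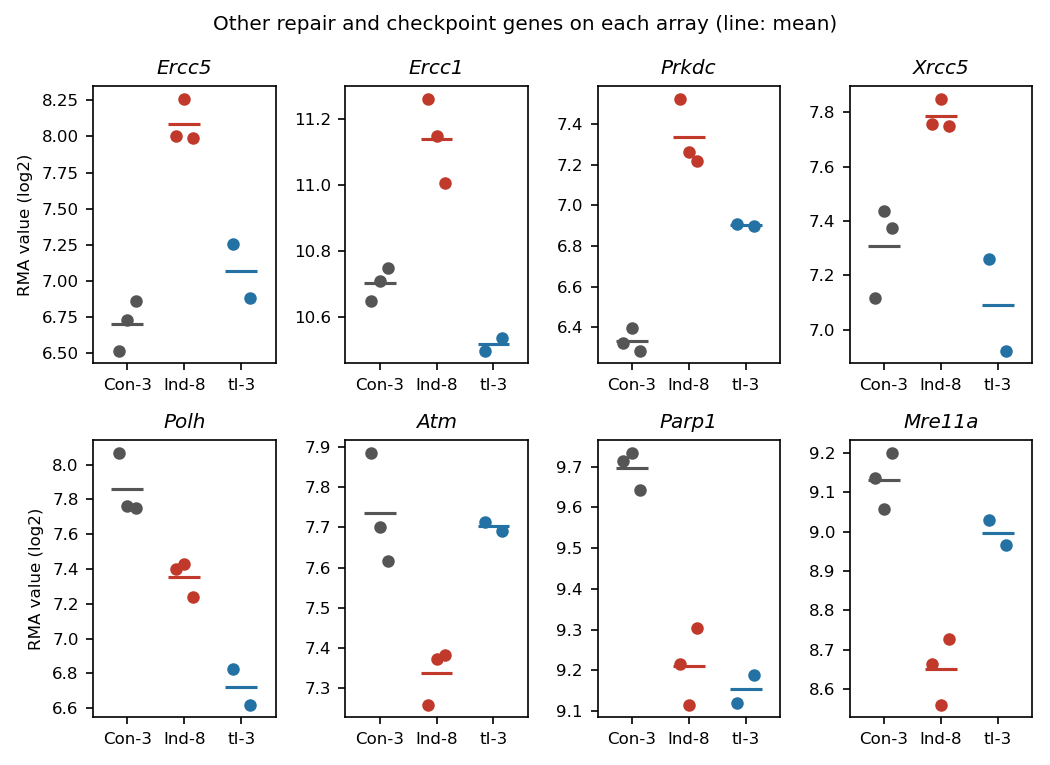
RMA log2 value (y axis, scaled to each gene) of 8 of the 13 other members on each array (points; line, mean). Ercc5, Ercc1, Prkdc and Xrcc5 were highest in Ind-8, whereas Atm and Mre11a were lowest there and Polh was lowest in tI-3, at 6.83 and 6.62.

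Among the kinases, Atm read 7.26, 7.37 and 7.38 in Ind-8, 7.89, 7.70 and 7.62 in Con-3 and 7.71 and 7.69 in tI-3 cells. Ind-8 lay below both other lines, which overlapped. It was lower than Con-3 with a difference of −0.40 (SE 0.0949, adjusted p = 0.013) and than tI-3 with −0.37 (SE 0.106, adjusted p = 0.0263). The latter was lost without Ind-8 replicate 1 (adjusted p = 0.0742) or either tI-3 array (adjusted p = 0.0984 and 0.108). Chek1, the kinase activated by Atr, read 7.08, 6.96 and 6.90 in Ind-8, 7.84, 7.54 and 7.53 in Con-3 and 7.27 and 7.07 in tI-3 cells. Con-3 was highest and the other lines overlapped. Its difference from Con-3 was −0.66 (SE 0.111, adjusted p = 0.00243) in Ind-8 and −0.47 (SE 0.124, adjusted p = 0.0197) in tI-3 cells. The latter was lost without Con-3 replicate 1 (adjusted p = 0.0503) or tI-3 replicate 2 (adjusted p = 0.163). Atr and Chek2 were not called in any comparison. Their differences between Ind-8 and Con-3 had 95% intervals from −0.10 to 0.29 and from −0.24 to 0.19. With arrays quantile-normalized again, Chek2 was called between tI-3 and Con-3 (adjusted p = 0.0195) and between Ind-8 and tI-3 (adjusted p = 0.00919).

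Mre11a, Nbn and Rad50 form the complex that holds broken ends. Mre11a read 8.66, 8.56 and 8.73 in Ind-8, 9.14, 9.06 and 9.20 in Con-3 and 9.03 and 8.97 in tI-3 cells. Ind-8 was the lowest line, with a difference from Con-3 of −0.48 (SE 0.0874, adjusted p = 0.00347) and from tI-3 of −0.35 (adjusted p = 0.0231). The latter was lost without Ind-8 replicate 2 (adjusted p = 0.0685) or either tI-3 array (adjusted p = 0.103 and 0.0824). Nbn was lower than in Con-3 by a difference of −0.47 in tI-3 (SE 0.0935, adjusted p = 0.0044) and of −0.29 in Ind-8 cells (SE 0.0837, adjusted p = 0.0325). The Ind-8 call was lost without Ind-8 replicate 2 or 3 (adjusted p = 0.11 and 0.0885) and without Con-3 replicate 1, 2 or 3 (adjusted p = 0.0579, 0.0891 and 0.0853). Rad50 was not called, and its difference between Ind-8 and Con-3 had an interval from −0.27 to 0.17.

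Polh, which copies past ultraviolet damage, is a translesion polymerase like Polk. Against Con-3 it moved the other way, whereas both were higher in Ind-8 than in tI-3 cells. It read 7.40, 7.43 and 7.24 in Ind-8, 8.07, 7.76 and 7.75 in Con-3 and 6.83 and 6.62 in tI-3 cells. No lines overlapped, and tI-3 was lowest. The difference from Con-3 was −1.14 (SE 0.127, adjusted p = 0.000207) in tI-3, which the rank product test also called, and −0.50 (SE 0.114, adjusted p = 0.00987) in Ind-8 cells. Ind-8 exceeded tI-3 by 0.63 (adjusted p = 0.00535; 0.0606 without tI-3 replicate 2). Parp1, which marks strand breaks, read 9.22, 9.12 and 9.30 in Ind-8, 9.71, 9.73 and 9.64 in Con-3 and 9.12 and 9.19 in tI-3 cells. Con-3 stood above both lines, with differences of −0.48 (SE 0.0868, adjusted p = 0.0032) for Ind-8 and −0.54 (SE 0.0971, adjusted p = 0.00265) for tI-3.

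Of the 16 cell-cycle-linked genes, 10 were lower in Ind-8 than in Con-3 cells, beside 11% of all probe sets, and 6 were not called. The median log2 difference was −0.48, against −0.06 over all probe sets. Between tI-3 and Con-3 cells 9 were lower, beside 15.1% of all, and 1 higher, with a median of −0.41. Between Ind-8 and tI-3 cells 4 were lower, beside 15.5%, and 1 higher, with a median of −0.19. The rank product test called 4, 1 and 0 lower in these comparisons, beside 322, 366 and 86 of all 22523 probe sets. For tI-3 against Con-3 the lower count was 3 without tI-3 replicate 2 and 3 with the hybridization-control covariate, and Brca2, the gene called higher, was then not called. For Ind-8 against tI-3 the lower count was 2 without Ind-8 replicate 2 and 1 without either tI-3 array, where Msh6, called higher, was also lost. It was 0 with the covariate.

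Bulk RNA cannot tell fewer cells in S phase or G2 from less RNA in each cell. A separate list of 30 S phase and mitosis genes, of which 28 were matched, was read beside them. In Ind-8 against Con-3 cells 22 of the 28 were lower, beside 11% of all probe sets, with a median of −0.48. In tI-3 against Con-3 cells 8 were lower, beside 15.1%, with a median of −0.18, and in Ind-8 against tI-3 cells 11, beside 15.5%, with a median of −0.29. The rank product test called 5, 0 and 0 lower, and with a minimum log2 change of 1 the first count was 1. The count for Ind-8 against Con-3 was 16 with the hybridization-control covariate and also 16 without Ind-8 replicate 2. Without tI-3 replicate 2 the count for tI-3 against Con-3 was 4, and with the hybridization-control covariate it was 5. That for Ind-8 against tI-3 was 4 and 7 without tI-3 replicates 1 and 2 and 1 with the covariate. The list's mean was 9.58, 9.33 and 9.52 on the Ind-8 arrays, 9.98, 9.95 and 9.96 on the Con-3 arrays and 9.79 and 9.72 on the tI-3 arrays. Ccna2, the S phase cyclin, differed from Con-3 by −0.71 in Ind-8 (adjusted p = 0.000536) and by −0.02 in tI-3 cells (adjusted p = 0.912). Mcm5, a replication helicase subunit, differed by −0.86 (adjusted p = 0.000254) and −0.75 (adjusted p = 0.000849). Whether a smaller share of cycling cells accounts for the lower repair genes was not tested.

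**Figure D4:**
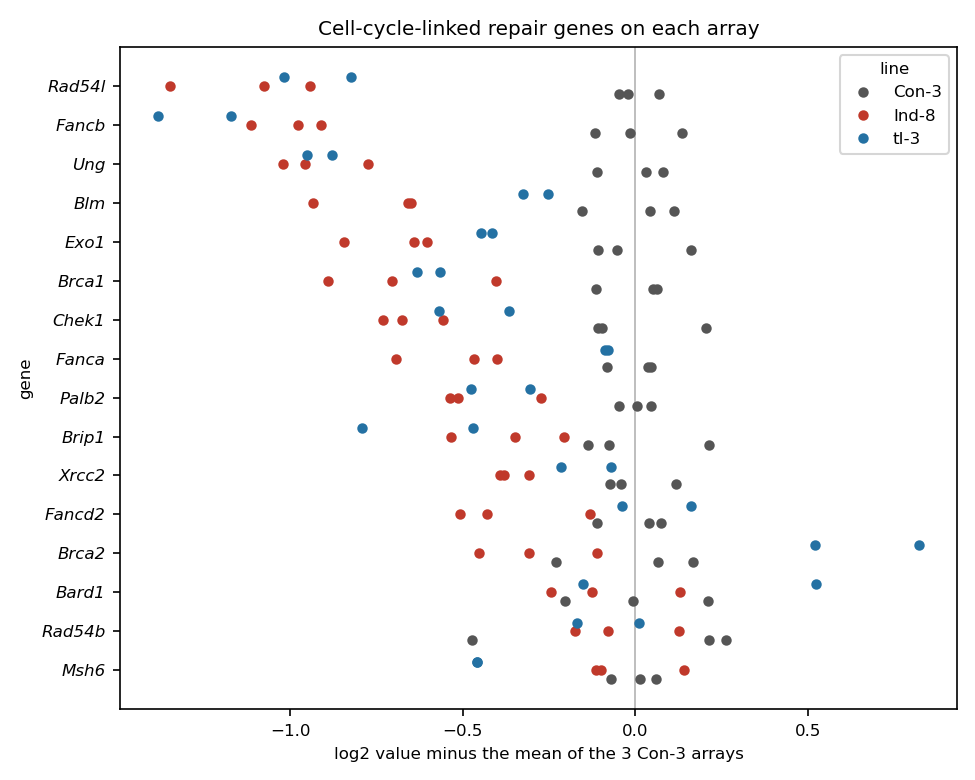
Log2 value of the 16 cell-cycle-linked genes (y axis) on each array, minus the mean of the 3 Con-3 arrays (x axis); each point is an array. Ind-8 and tI-3 arrays lay left of the Con-3 arrays for Rad54l, Fancb and Ung, whereas the tI-3 arrays of Brca2 lay to their right, at 8.05 and 8.36 before the mean was subtracted.

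Homologous recombination supplied 9 of the members. Rad54l, a motor protein that drives strand exchange, read 7.70, 7.29 and 7.57 in Ind-8, 8.71, 8.60 and 8.62 in Con-3 and 7.82 and 7.63 in tI-3 cells. Con-3 stood far above the other lines, which overlapped. It fell most of all members in Ind-8, with a difference of −1.12 (SE 0.115, 2.18-fold, adjusted p = 0.000143), and differed by −0.92 (SE 0.128, adjusted p = 0.000668) in tI-3 cells. Between Ind-8 and tI-3 the Rad54l difference of −0.20 was called with arrays quantile-normalized again (−0.39, adjusted p = 0.043). Brca1, the scaffold of break repair, read 7.44, 6.96 and 7.14 in Ind-8, 7.91, 7.90 and 7.74 in Con-3 and 7.22 and 7.28 in tI-3 cells, again with Con-3 apart. Its differences were −0.67 (SE 0.123, adjusted p = 0.00376) and −0.60 (SE 0.137, adjusted p = 0.00945), the latter lost without tI-3 replicate 1 (adjusted p = 0.0599) or 2 (adjusted p = 0.0504).

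Brca2, which works at resected break ends, followed another pattern and read 7.42, 7.08 and 7.22 in Ind-8, 7.30, 7.60 and 7.70 in Con-3 and 8.05 and 8.36 in tI-3 cells. The tI-3 arrays were highest, while Ind-8 and Con-3 overlapped. It was higher in tI-3 than in Con-3 cells by 0.67 (SE 0.151, adjusted p = 0.00873), a call lost without tI-3 replicate 2 (adjusted p = 0.0987). Ind-8 differed from tI-3 by −0.96 (SE 0.151, adjusted p = 0.00152; 0.131 with the hybridization-control covariate). Blm, the helicase that dissolves recombination intermediates, read 7.44, 7.16 and 7.44 in Ind-8, 8.14, 7.94 and 8.21 in Con-3 and 7.77 and 7.84 in tI-3 cells. No lines overlapped, and Ind-8 was lowest, by −0.75 from Con-3 (SE 0.109, adjusted p = 0.00109). The difference from tI-3, −0.46 (adjusted p = 0.0185), was lost without Ind-8 replicate 2 (adjusted p = 0.0544) or either tI-3 array (adjusted p = 0.0566 and 0.116).

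Palb2, the partner of Brca2, differed from Con-3 by −0.44 in Ind-8 (adjusted p = 0.00987) and by −0.39 in tI-3 cells (adjusted p = 0.0264). The tI-3 call was lost without Con-3 replicate 1 (adjusted p = 0.0551) or 2 (adjusted p = 0.0799) or tI-3 replicate 2 (adjusted p = 0.192). Xrcc2, a factor of strand exchange, was lower in Ind-8 than in Con-3 cells, by −0.36 (adjusted p = 0.017). This was lost without Con-3 replicate 3 (adjusted p = 0.0636) or Ind-8 replicate 2 (adjusted p = 0.0587). Brip1, a helicase that binds Brca1, differed from Con-3 by −0.63 in tI-3 cells (adjusted p = 0.0105; 0.117 without tI-3 replicate 2) and by −0.36 in Ind-8 cells, which was not called (adjusted p = 0.0764) but was with the replicate block (adjusted p = 0.0151) and with the hybridization-control covariate (adjusted p = 0.038). The Brip1 difference of 0.27 between Ind-8 and tI-3 (adjusted p = 0.187) was called with the replicate block (0.34, adjusted p = 0.0279). Rad54b and Bard1, the partner of Brca1, were not called in any comparison, and Bard1 lay between 4.30 and 5.07, near the dim end.

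The Fanconi anaemia genes Fanca, Fancb and Fancd2 did not move alike. Fancb, a subunit of the core complex, read 6.88, 6.75 and 6.95 in Ind-8, 7.99, 7.84 and 7.74 in Con-3 and 6.69 and 6.48 in tI-3 cells. Con-3 was highest and tI-3 lowest, with no overlap. Its differences from Con-3 were −1.0 (SE 0.104, adjusted p = 0.000155) in Ind-8 and −1.28 (SE 0.116, adjusted p = 6.52e-05) in tI-3 cells, both also called by the rank product test. Fanca, of the same complex, read 6.52, 6.29 and 6.59 in Ind-8, 6.91, 7.03 and 7.02 in Con-3 and 6.90 and 6.91 in tI-3 cells, so that only Ind-8 lay apart. It differed from Con-3 by −0.52 (SE 0.098, adjusted p = 0.00418) and from tI-3 by −0.44 (adjusted p = 0.0139), the latter lost without tI-3 replicate 1 (adjusted p = 0.0574) or 2 (adjusted p = 0.0807). Fancd2, which the core complex ubiquitinates, differed between Ind-8 and Con-3 by −0.36 (adjusted p = 0.0516), which was not called. It was called without Ind-8 replicate 3 (adjusted p = 0.0165), with the replicate block (adjusted p = 0.0334), among probe sets above the 25th percentile (adjusted p = 0.043), and with centred (adjusted p = 0.033) or quantile-normalized (adjusted p = 0.0347) arrays. Its difference of −0.42 from tI-3 (adjusted p = 0.0338) was lost without Ind-8 replicate 1 (adjusted p = 0.0889) or 2 (adjusted p = 0.0991) or either tI-3 array (adjusted p = 0.186 and 0.0693) and with the 2 lines alone (adjusted p = 0.0502).

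The last cell-cycle-linked genes act on bases and mismatches. Ung, which removes uracil from DNA, read 7.28, 7.10 and 7.04 in Ind-8, 8.14, 8.09 and 7.95 in Con-3 and 7.18 and 7.11 in tI-3 cells. Con-3 stood apart from the other lines, which overlapped. The difference was −0.92 both in Ind-8 (SE 0.0973, adjusted p = 0.000176) and in tI-3 cells (SE 0.109, adjusted p = 0.000285). Exo1, a nuclease of mismatch repair, differed from Con-3 by −0.70 in Ind-8 (SE 0.104, adjusted p = 0.00118) and by −0.43 in tI-3 cells (adjusted p = 0.0203). The latter was lost without Con-3 replicate 1 (adjusted p = 0.0567) or either tI-3 array (adjusted p = 0.0741 and 0.111) and with arrays quantile-normalized again (adjusted p = 0.0502). Between Ind-8 and tI-3 the Exo1 difference of −0.26 was called with arrays quantile-normalized again (−0.40, adjusted p = 0.0235). Msh6, which recognizes mismatches, read 10.17, 9.93 and 9.92 in Ind-8, 10.04, 10.09 and 9.96 in Con-3 and 9.57 and 9.57 in tI-3 cells, so that only tI-3 was low. It differed between tI-3 and Con-3 by −0.46 (SE 0.107, adjusted p = 0.0105; 0.0526 and 0.0634 without tI-3 replicates 1 and 2). Ind-8 exceeded tI-3 by 0.43 (adjusted p = 0.013; 0.0564 and 0.0741 without these).

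A wider list of 84 other checkpoint and repair genes, of which 78 were matched, gave 4 higher and 34 lower in Ind-8 against Con-3 cells, beside 10.9% and 11% of all probe sets, with a median of −0.23. Set against Con-3, tI-3 cells had 5 higher and 29 lower, beside 10.2% and 15.1% (median −0.23). Set against tI-3, Ind-8 cells had 16 higher and 17 lower, beside 15.6% and 15.5% (median −0.09). The rank product test called 1 higher and 6 lower in Ind-8 against Con-3 cells and none in the others. By limma, 3 were higher and 23 lower in Ind-8 against Con-3 cells with the hybridization-control covariate. Without Ind-8 replicate 2 these counts were also 3 and 23. Between tI-3 and Con-3 cells 2 were higher without tI-3 replicate 1, 1 higher and 17 lower without replicate 2, and 2 and 19 with the hybridization-control covariate. Between Ind-8 and tI-3 cells 9 were higher without Ind-8 replicate 1, 11 lower without Ind-8 replicate 2, 10 higher and 8 lower without tI-3 replicate 1, and 6 and 8 without replicate 2. With the covariate these were 1 and 3, and with arrays quantile-normalized again 7 were higher.

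Of the wider list, the largest called rises in Ind-8 against Con-3 cells were those of Mgmt (1.02), which removes alkyl groups, Gadd45g (0.82) and the end-joining factor Nhej1 (0.51). The largest falls were those of Rpa2 (−1.06), of the single-strand binding complex, the phosphatase Cdc25c (−1.04) and the strand exchange factor Rad51b (−0.99). In tI-3 against Con-3 cells they were Nhej1 (0.64), Rpa3 (0.54) and Mgmt (0.53), and the glycosylase Mpg (−0.96), Rad23b (−0.85) and the clamp subunit Rad1 (−0.84). Without tI-3 replicate 2 the calls of Nhej1 (adjusted p = 0.0556) and Mgmt (adjusted p = 0.12) were lost, as was that of Mgmt without tI-3 replicate 1 (adjusted p = 0.0924) or with the covariate (adjusted p = 0.148). Those between Ind-8 and tI-3 cells were Rad52 (0.84) and Xpa (0.72), and Cdc25c (−0.87), Rpa3 (−0.87) and Fanci (−0.66), the last lost without tI-3 replicate 1 (adjusted p = 0.0575). With the covariate the calls of Rad52 (adjusted p = 0.092), Xpa (adjusted p = 0.0548) and Fanci (adjusted p = 0.124) were lost.

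Paralogs and partners of the members were read from the same list. Rrm1, the large reductase subunit, differed between Ind-8 and Con-3 by −0.55 (adjusted p = 0.0032), whereas Rrm2, the S phase counterpart of Rrm2b, was not called, with 0.11 (adjusted p = 0.605). Fanci, the partner of Fancd2, differed by −0.54 (adjusted p = 0.0107). Poli, a translesion polymerase, differed by −0.33 (adjusted p = 0.0457), a call that leaving out any array but Con-3 replicate 3 ended, with adjusted p from 0.0507 to 0.167. It was also lost with the replicate block (adjusted p = 0.06), the 2 lines alone (adjusted p = 0.0584), the covariate (adjusted p = 0.0806) and a trend in the prior (adjusted p = 0.0586). Gadd45b, Ddb1 and Rad23b were not called between Ind-8 and Con-3, with −0.21, −0.13 and −0.32.

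These values have limits. Each state is a single cloned line, so a difference between Ind-8, Con-3 and tI-3 cells may belong to the clone rather than to p53 or IMPDH II. The tI-3 line has 2 arrays, and many of its calls rested on both. Messenger RNA says nothing of the kinase activity of Atm or Chek1, of ubiquitinated Fancd2 or of repair itself, which were not analysed here. No damaging agent was part of the comparison, and all lines were read at 1 time in zinc. The share of cells in each cycle phase was not analysed here, so the lower values of genes such as Rad54l and Ung cannot be told apart from fewer cycling cells.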

How the data were processed

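Labelled cRNA made from the total RNA of 8 cultures was hybridized, each to 1 Affymetrix mouse array. The authors summarized the probes by RMA (named without a version in the submitters' processing notes), after regrouping them so that each probe set reads 1 RefSeq transcript. What was deposited are log2 intensities, used without further normalization. The table holds 22587 probe sets. The 64 Affymetrix controls were set aside, and 18294 of the other 22523 were named through a RefSeq table of GRCm38.p6, used for names and promoter sequences. Identical rows counted once per gene.

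Lines were compared with limma 3.58.1 (lmFit, contrasts and eBayes with its default prior) in R 4.3.3 on all 8 arrays. P values of the 22523 probe sets were adjusted by Benjamini-Hochberg and called under 0.05. SE is the moderated standard error, and intervals are at 95%. Members and lists were chosen with earlier results of these data known. The text names every member, fixed partners from the wider list with its 3 largest called rises and falls, Ccna2 and Mcm5, and genes that check the labels. Some genes of the wider list that this rule names are counted but not reported here. Alternatives were the rank product test (re-implemented, 100 permutations, percent false positives under 0.05), the compared lines only, a replicate block, a hybridization-control covariate, a trend in the prior, probe sets above the 25th percentile, identical rows counted once before adjustment, centred or quantile-normalized arrays, the median of a gene's rows, a minimum log2 change of 1, and each array left out. With a tI-3 array left out, the lone array is assumed to vary like the other lines. Both tests were tested on simulated data, where the rank product test made more false calls than its threshold states. Python 3.11.15 with numpy 2.4.6, scipy 1.17.1, pandas 2.3.3 and matplotlib 3.10.9 made the summaries and figures.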

Additional observations from a re-analysis of the deposited data

Results flagged for a closer look

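The control probe sets, which are not among the probe sets tested, carried signals above those of other arrays. The 18S ribosomal RNA probe sets averaged 10.63 on Con-3 replicate 3, above every other array. The hybridization controls averaged 9.71 on tI-3 replicate 2, above every Con-3 array. Their part in the members' differences was not tested beyond the covariate and the left-out arrays.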

How the results depend on the processing

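The rank product test called 3 members higher and 4 lower in Ind-8 against Con-3 (7 and 15 by limma), 0 and 2 in tI-3 against Con-3 (3 and 13), and 0 and 0 in Ind-8 against tI-3 (8 and 6). With a minimum log2 change of 1 these counts were 3 and 2, 0 and 2, and 1 and 0, since fewer genes can pass. With the hybridization-control covariate, 7 were lower in tI-3 against Con-3, and 2 higher and 0 lower in Ind-8 against tI-3. With arrays quantile-normalized again, 5 were higher in tI-3 against Con-3. Leaving out each array gave 6 to 13 lower in tI-3 against Con-3, and 3 to 9 higher and 1 to 6 lower in Ind-8 against tI-3. The other counts of members stayed within 1.5 times under the alternatives run.

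Some group medians moved. With the covariate, the cell-cycle-linked median in tI-3 against Con-3 was −0.34 and the p53-induced median in Ind-8 against tI-3 was 0.15. With quantile normalization, the first was −0.34, and the median of the other members was −0.0444 in tI-3 against Con-3 and 0.0491 in Ind-8 against tI-3. With arrays left out, the median of the other members ran from −0.10 to −0.0299 in Ind-8 against Con-3 and from −0.17 to −0.0478 in tI-3 against Con-3, and the cell-cycle-linked median from −0.45 to −0.35 in tI-3 against Con-3 and from −0.22 to −0.10 in Ind-8 against tI-3. The cause was not tested.

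The replicate block gave 7 higher and 17 lower, 3 and 13, and 9 and 6 in the 3 comparisons. The main fit was set without a block. In their deviations from the mean of their line, same-numbered Ind-8 and Con-3 arrays correlated at 0.27, 0.029 and 0.381. Differently numbered ones correlated between −0.408 and 0.117. Same-numbered arrays correlated at 0.009 and −0.225 between Ind-8 and tI-3 and at 0.205 and 0.042 between Con-3 and tI-3. Not every array correlated best with its own number. Whether the numbers mark shared preparations was not tested. Under the block the sign of Ccna2 in tI-3 against Con-3 turned to 0.0257 and that of Ung in Ind-8 against tI-3 to 0.0523.

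Other signs that turned belonged to differences that limma did not call. In Ind-8 against Con-3 the covariate gave Bard1 0.00086 and Rad50 0.0107. In tI-3 against Con-3 the covariate gave Rad54b 0.29, Atm 0.0687 and Atr 0.0018, and quantile normalization gave Fanca 0.0213, Atm 0.10, Atr 0.0721, Rrm1 0.040 and Ccna2 0.10. In Ind-8 against tI-3 the covariate gave Brip1 −0.0523 and Rad54b −0.65, and quantile normalization gave Atr −0.0294, Parp1 −0.0679, Ddb1 −0.10 and Nhej1 0.0062.

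With each array left out, ranges in Ind-8 against Con-3 were −0.19 to 0.0249 for Bard1, −0.28 to 0.0889 for Rad54b, −0.11 to 0.021 for Msh6, −0.0478 to 0.0202 for Chek2, −0.10 to 0.0226 for Rad50 and −0.0192 to 0.25 for Rrm2. In tI-3 against Con-3 they were −0.15 to 0.52 for Bard1, −0.32 to 0.0517 for Rad54b, −0.038 to 0.16 for Fancd2, −0.0911 to 0.0434 for Atm, −0.12 to 0.0753 for Atr, −0.0446 to 0.10 for Poli, −0.0757 to 0.31 for Fanci and −0.0704 to 0.0333 for Ccna2. In Ind-8 against tI-3 they were −0.39 to 0.0417 for Ddb2, −0.20 to 0.0437 for Brca1, −0.60 to 0.0727 for Bard1, −0.13 to 0.035 for Palb2, −0.0535 to 0.13 for Rad54b, −0.0719 to 0.050 for Ung and −0.0113 to 0.12 for Ddb1.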
